A study of Mus musculus with 3 samples.

Results

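The genes of the Polycomb complexes were examined for H3K36me3, the trimethylated form of histone H3 lysine 36 that Setd2 lays down along transcribed gene bodies, in regulatory T (Treg) cells of the spleen and the large intestine (LI). The 10 genes were chosen by name, as core or accessory subunits: Ezh1, Ezh2, Eed, Suz12, Jarid2, Mtf2 and Phf19 of Polycomb repressive complex 2 (PRC2), and Bmi1, Rnf2 and Ring1 of PRC1. A peak belonged to a gene when its midpoint lay in the annotated gene body. By this rule 168 of the 120910 peaks fell in the 10 genes, every one of which held at least 1 peak and enough signal to be compared, out of 55450 annotated genes of which 11946 held a peak.

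Polycomb proteins keep genes silent through histone marks. PRC2 methylates histone H3 at lysine 27 through Ezh2 or its close relative Ezh1, and PRC1 attaches ubiquitin to histone H2A through Rnf2 or Ring1. H3K36me3 marks chromatin over which RNA polymerase is passing and is known to hinder PRC2 on the histone that carries it. In Treg cells, Ezh2 is known to be induced on activation and to help hold the Treg program.

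The study asked how the mark is distributed in Treg cells of the 2 organs at steady state. Adult C57BL/6 mice, labelled Foxp3-YFP for the samples and Foxp3Cre-YFP for the series, gave the cells, gated as CD3+CD4+Foxp3-YFP+. In these animals the Foxp3 locus drives a Cre-YFP fusion, so both libraries came from reporter mice, none of them labelled as lacking Setd2. Cells of 7 male and 7 female mice were pooled, and 1 chromatin immunoprecipitation library was made for each organ. An input library from the same series was not analysed here. With 1 library an organ there was no replicate check: no p-value is given, intervals cover counting error only, and a difference between organs cannot be told apart from one between 2 preparations. Each value is the mean read coverage of a peak in RPKM (reads scaled to length in kilobases and to the mapped reads of the library), with the LI column divided by 1.03, the ratio of the column totals. The smallest steps between values gave the depth as about 29600000 mapped reads in the spleen library and 38100000 in the LI library.

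The sorted identity was checked on marker genes. All 7 Treg and T cell genes held peaks, and Foxp3, the defining factor of the lineage, had a summed value of 133 RPKM in the spleen and 151 RPKM in the LI, all 9 of its peaks lying also in an overlapping gene. Of the 7 genes 3 were higher in the LI, Ctla4 with an interval above 0, and 4 in the spleen, Cd3e, Cd3g and Ikzf2 with intervals below 0. Ikzf2, which encodes Helios, had 1205 RPKM in the spleen and 824 RPKM in the LI (log2 ratio -0.55, interval -0.66 to -0.44), and the median of the 7 genes was -0.08. Among B cell genes, Ms4a1 held none, Pax5 held 1 weak peak (4.05 against 9.60 RPKM) and Cd79a held 4 peaks, with 47.2 RPKM in the spleen and 28.9 RPKM in the LI. Of 4 myeloid genes, Csf1r alone held a peak. Of 4 intestinal epithelial genes, Cdh1 and Krt8 held none and Vil1 held 1 weak peak (4.63 against 12.2 RPKM), while Epcam, an adhesion protein of epithelium, held 5 peaks that were higher in the LI (25.3 against 45.8 RPKM, log2 ratio 0.84, interval 0.23 to 1.46). The part of other cells in the values of the Polycomb genes was not tested.

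The peaks themselves are shown here as DNA, since base composition ran alongside the ratio between the libraries. Each stretch has 240 bases from the peak with the most signal in its gene and is written 5′ to 3′ on the strand of the gene from the mm10 build, with coding bases of that gene in capitals. Ezh2 (chr6:47545433-47545672, minus strand) and Suz12 (chr11:80031598-80031837, plus strand) are stretches without coding bases, from peaks that were higher in the spleen. Ring1 (chr17:34021839-34022078, minus strand) is from a GC-rich peak that was also higher in the spleen. Jarid2 (chr13:44914644-44914883, plus strand) and Ezh1 (chr11:101195577-101195816, minus strand) are from peaks nearly equal in the 2 organs, and Bmi1 (chr2:18684078-18684317, plus strand) is from the only peak of that gene.
Ezh2: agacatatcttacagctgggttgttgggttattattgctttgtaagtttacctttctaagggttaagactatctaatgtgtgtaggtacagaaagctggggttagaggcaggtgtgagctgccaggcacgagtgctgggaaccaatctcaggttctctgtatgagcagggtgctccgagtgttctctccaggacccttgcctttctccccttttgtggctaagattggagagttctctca
Suz12: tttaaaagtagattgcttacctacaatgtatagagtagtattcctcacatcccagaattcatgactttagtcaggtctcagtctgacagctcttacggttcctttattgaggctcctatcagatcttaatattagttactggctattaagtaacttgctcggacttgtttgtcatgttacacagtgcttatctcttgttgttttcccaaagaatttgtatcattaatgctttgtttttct
Ring1: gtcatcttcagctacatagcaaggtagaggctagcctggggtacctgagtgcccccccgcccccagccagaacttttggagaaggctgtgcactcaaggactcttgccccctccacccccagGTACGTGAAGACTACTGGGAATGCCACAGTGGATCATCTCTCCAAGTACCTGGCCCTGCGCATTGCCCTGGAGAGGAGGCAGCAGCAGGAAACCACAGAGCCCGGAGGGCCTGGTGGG
Jarid2: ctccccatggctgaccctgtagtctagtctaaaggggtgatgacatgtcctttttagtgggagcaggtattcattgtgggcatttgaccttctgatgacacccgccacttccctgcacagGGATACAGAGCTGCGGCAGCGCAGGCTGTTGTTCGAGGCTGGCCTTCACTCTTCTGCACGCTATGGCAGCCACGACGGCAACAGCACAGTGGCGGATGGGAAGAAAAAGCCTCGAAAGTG
Ezh1: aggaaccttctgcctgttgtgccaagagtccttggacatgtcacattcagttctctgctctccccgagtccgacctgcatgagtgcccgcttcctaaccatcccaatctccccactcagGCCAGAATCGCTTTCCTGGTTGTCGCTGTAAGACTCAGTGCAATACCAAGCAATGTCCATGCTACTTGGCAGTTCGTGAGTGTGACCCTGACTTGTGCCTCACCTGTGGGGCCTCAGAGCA
Bmi1: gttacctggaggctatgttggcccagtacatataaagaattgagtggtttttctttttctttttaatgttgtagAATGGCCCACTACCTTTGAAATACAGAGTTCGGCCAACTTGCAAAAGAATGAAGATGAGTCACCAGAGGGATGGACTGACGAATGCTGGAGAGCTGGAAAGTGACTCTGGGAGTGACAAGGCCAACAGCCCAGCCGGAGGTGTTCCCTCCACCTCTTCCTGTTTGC
The stretch of Suz12 was 35.4% GC and that of Ring1 60.8%. The peaks that hold them were 39.1% and 56.1% GC. In 4 of the 6 stretches the capitals begin where an intron ends. Most peaks of these genes lay over introns: of the 168 peaks, 117 had an intronic midpoint, 18 a midpoint in a coding exon and 25 within 1 kb of an annotated start.

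Of the 10 Polycomb genes, 7 had a higher summed H3K36me3 value in splenic than in LI Treg cells, 5 of them by more than counting error allows. Of all 10886 genes with enough signal, 5363 were higher in the spleen. The summed values of Mtf2, Ezh2, Jarid2, Eed and Suz12, all of PRC2, were higher in the spleen with counting intervals that lay below 0, at log2 ratios (LI over spleen) of -0.53 to -0.20. Rnf2 and Ring1 of PRC1 had higher values in the spleen, and Ezh1, Phf19 and Bmi1 in the LI, with intervals that included 0. Thus 5 of 10 genes had an interval below 0, where 15.2% of the 10886 genes with enough signal (at least 20 RPKM over both libraries) did, and 0 had an interval above 0, where 18.0% did. The 5 became 3 when the deposited values were left unscaled, with Eed and Suz12 lost, and 1 when the strongest peak of each gene stood alone, that of Suz12. The strongest peak is the one of highest RPKM whatever its length, and can differ from the peak with the most signal, which counts length. No member passed 2-fold, which 5.47% of all genes did. The members had a median of 15 peaks against 6 over all genes tested, and counting intervals narrow as reads grow. These shares of all genes are therefore not matched to the members in depth. With a minimum of 200 RPKM, 70 of 4323 genes were past 2-fold in the LI and 39 in the spleen, and 0 of 7 members. The median log2 ratio was -0.21 over the members and 0.01 over all genes, whose middle 50% ran from -0.20 to 0.24.

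The 2 libraries also differed with base composition across the genome, and the median member was more AT-rich than the median gene. Among all peaks cut into 20 bins of GC content, the median log2 ratio ran from -0.56 in the most AT-rich bin to 0.37 in the most GC-rich. The median peak GC content was 44.1% over the members and 48.1% over all genes, although Phf19 (55.7%) and Ring1 (56.6%) were GC-rich. After the median ratio of peaks of like GC content was subtracted, the median of the members was -0.03, as was that of all genes. The cause of the trend was not tested. Ezh2, Mtf2, Jarid2 and Ring1 then had intervals below 0, against 15.8% of all genes, and 0 members had one above 0, against 11.1%. These shares too are not matched in depth.

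**Figure D1:**
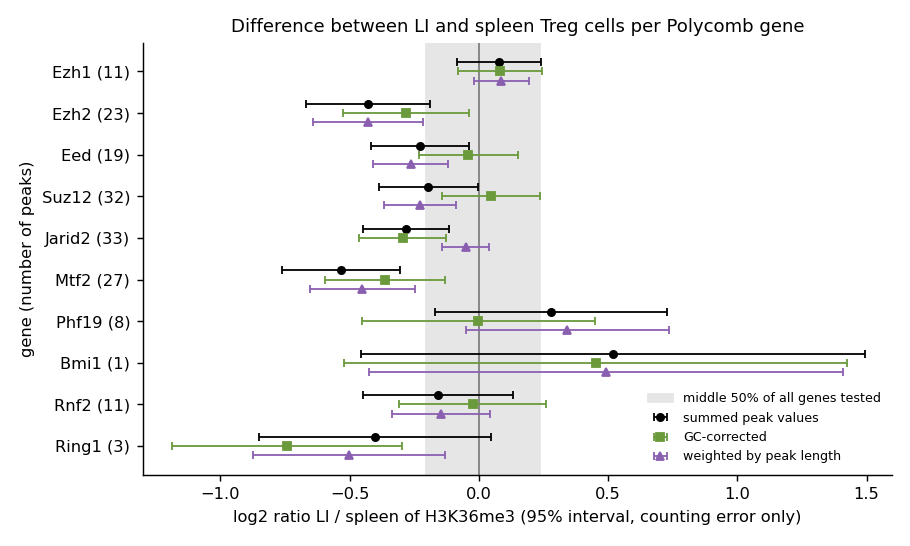
Log2 ratio of summed H3K36me3 between LI and splenic Treg cells for the 10 genes, with 95% intervals of counting error: summed peak values (circles), corrected for GC content (squares) and weighted by peak length (triangles). The grey band holds the middle 50% of all genes tested, from -0.20 to 0.24. Ezh2 and Mtf2 lay below 0 in all 3 forms, Suz12 crossed 0 on GC correction and Jarid2 drew close to 0 on length weighting.

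Ezh2 and Ezh1 are the alternative catalytic subunits of PRC2, Ezh2 being the form of dividing cells and Ezh1 that of resting ones. Ezh2 (ENSMUSG00000029687.16, chr6:47530139-47595341, minus strand) had a summed value of 252 RPKM in the spleen and 187 RPKM in the LI over 23 peaks. The spleen was 1.35-fold higher, at a log2 ratio of -0.43 (interval -0.67 to -0.19), and -0.28 (interval -0.52 to -0.04) with GC correction. Its signal was thin and broken up: no peak reached 1 kb, the longest had 989 bp, and peaks covered 16.0% of the gene body. Of its 23 peaks 20 were higher in the spleen, but single peaks were shallow and 1 of them had an interval below 0, a 200-bp intronic peak with 12.2 RPKM in the spleen and 2.52 RPKM in the LI. Of the peaks, 4 also lay in the overlapping gene Gm26625, and the assay does not record strand.

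Ezh1 (ENSMUSG00000006920.14, chr11:101191115-101226463, minus strand) looked different. Its 11 peaks covered 71.9% of the gene body, and 7 of them were 1 kb or longer. Its summed value was 150 RPKM in the spleen and 158 RPKM in the LI, a log2 ratio of 0.08 (interval -0.08 to 0.24) that stayed at 0.08 with GC correction. The longest peak, of 6271 bp, had 18.7 RPKM in the spleen and 18.5 RPKM in the LI and so did not separate the organs. The peak nearest the end of the gene, of 3585 bp, was higher in the LI at 14.5 against 18.8 RPKM (log2 ratio 0.36, interval 0.09 to 0.64). The log2 ratio of Ezh2 was lower than that of Ezh1 by a difference of -0.51 (interval -0.80 to -0.22), and of -0.36 (interval -0.66 to -0.07) with GC correction. From the strongest peak of each gene alone, the difference was -0.17 and its interval ran from -0.94 to 0.61. For Ezh2 that was a peak of 554 bp (log2 ratio -0.18), not the 883-bp peak with the most signal (-0.60).

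Eed and Suz12 complete the PRC2 core: Eed binds trimethylated lysine 27 and Suz12 holds the complex together. Eed (ENSMUSG00000030619.9, chr7:89954654-89980983, minus strand) had 230 RPKM in the spleen and 196 RPKM in the LI over 19 peaks, of which 15 were higher in the spleen. Its log2 ratio of -0.23 (interval -0.42 to -0.04) came to -0.04 (interval -0.23 to 0.15) with GC correction. All 8 Eed peaks of 1 kb or more were higher in the spleen, against 48.7% of all such peaks in gene bodies. With GC correction some of these long peaks turned higher in the LI, such as that of 1002 bp (log2 ratio 0.12). Of all 19 Eed peaks, 11 (57.9%) were then higher in the spleen, against 51.2% of all peaks in gene bodies. The clearest of the long peaks, of 1545 bp in an intron, had 13.7 RPKM in the spleen and 9.16 RPKM in the LI.

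Suz12 (ENSMUSG00000017548.15, chr11:79993106-80034123, plus strand) had 324 RPKM in the spleen and 282 RPKM in the LI over 32 peaks, 23 of them higher in the spleen. The log2 ratio was -0.20, with an interval of -0.39 to -0.005 that barely left 0. Its peaks were the most AT-rich of the members, with a median of 39.6% GC, and with GC correction the ratio turned to 0.05 (interval -0.14 to 0.24). The difference varied along the gene in signal weighted by length and not GC-corrected. The stretch from 40% to 60% of the gene had a log2 ratio of 0.18 (interval -0.14 to 0.49) and that from 80% to 100% had -0.45 (interval -0.71 to -0.19). The other stretches had -0.43 (interval -1.37 to 0.51) from 0% to 20%, -0.19 (interval -0.50 to 0.11) from 20% to 40% and -0.31 (interval -0.57 to -0.04) from 60% to 80%. The last stretch of the gene includes the 2228-bp peak from which the sequence of Suz12 was taken, with 18.1 RPKM in the spleen and 12.0 RPKM in the LI. The log2 ratio of that peak was -0.57, and -0.25 with GC correction. Of the 32 peaks, 10 lay also in the overlapping gene Gm26563. Without them the ratio was -0.20 and its interval (-0.44 to 0.04) included 0.

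Jarid2, Mtf2 and Phf19 are accessory subunits, of which Jarid2 brings PRC2 to chromatin that already carries Polycomb marks, and Mtf2 and Phf19 are Polycomb-like proteins that direct it to CpG islands. Jarid2 (ENSMUSG00000038518.15, chr13:44729474-44921643, plus strand) had the largest summed value of the members, 397 RPKM in the spleen and 326 RPKM in the LI over 33 peaks. The log2 ratio was -0.28 (interval -0.45 to -0.11) and -0.30 (interval -0.46 to -0.13) with GC correction. Short peaks carried that ratio. Weighted by peak length it was -0.05 (interval -0.14 to 0.04), since 1 peak of 10850 bp at the 3′ end held 43.6% of the signal and had 22.9 RPKM in the spleen and 24.5 RPKM in the LI. The last 20% of the gene, with 93.4% of the spleen signal and 95.5% of the LI signal, had a log2 ratio of -0.02 (interval -0.11 to 0.07). The stretch from 40% to 60%, with 4 intronic peaks of 926 bp in all, had -1.18 (interval -1.98 to -0.37). A 260-bp intronic peak further upstream, of 8.05 RPKM in the spleen, was listed at 0 in the LI.

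Mtf2 (ENSMUSG00000029267.17, chr5:108065674-108109004, plus strand) had the lowest ratio of the 10 genes in summed values. Its summed value was 268 RPKM in the spleen and 185 RPKM in the LI over 27 peaks, 1.45-fold higher in the spleen, at a log2 ratio of -0.53 (interval -0.76 to -0.30), the 7.39th percentile of all genes tested. With GC correction the ratio was -0.36 (interval -0.60 to -0.13). Of the 27 peaks 24 were higher in the spleen and 7 by more than 2-fold. These 7 all lay in the first 60% of the gene. Weighted by length and not GC-corrected, 9 peaks from 40% to 60% of its length gave a log2 ratio of -0.89 (interval -1.28 to -0.51). The value was -0.12 (interval -0.47 to 0.24) from 60% to 80% and -0.24 (interval -0.66 to 0.18) after that. The first 20% had -0.56 (interval -1.12 to -0.005) and the next 20%, with 1 peak, -1.98 (interval -3.94 to -0.03). A 503-bp intronic peak in the middle of the gene had 13.7 RPKM in the spleen and 6.01 RPKM in the LI. Pooled over all protein-coding genes tested, the same stretches ran from -0.01 in the first 20% to 0.07 in the last 20%. A pool of many genes does not show how far the stretches of a single gene vary. Of the peaks, 2 lay also in Tmed5.

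Phf19 (ENSMUSG00000026873.9, chr2:34893757-34914026, minus strand), the relative of Mtf2, had 71.2 RPKM in the spleen and 86.5 RPKM in the LI over 8 peaks. The LI was higher at 6 of the 8, and the log2 ratio was 0.28 (interval -0.17 to 0.73). Its peaks were GC-rich, with a median of 55.7% GC, and with GC correction the ratio was -0.002 (interval -0.45 to 0.45). The log2 ratio of Mtf2 was below that of Phf19 by -0.81 (interval -1.32 to -0.31), a difference that came to -0.36 (interval -0.87 to 0.14) with GC correction. Its strongest single peak, a 200-bp intronic one with 16.1 RPKM in the spleen and 6.38 RPKM in the LI, went the other way from the sum. About 79 reads in the spleen and 134 in the LI stand behind the Phf19 values.

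**Figure D2:**
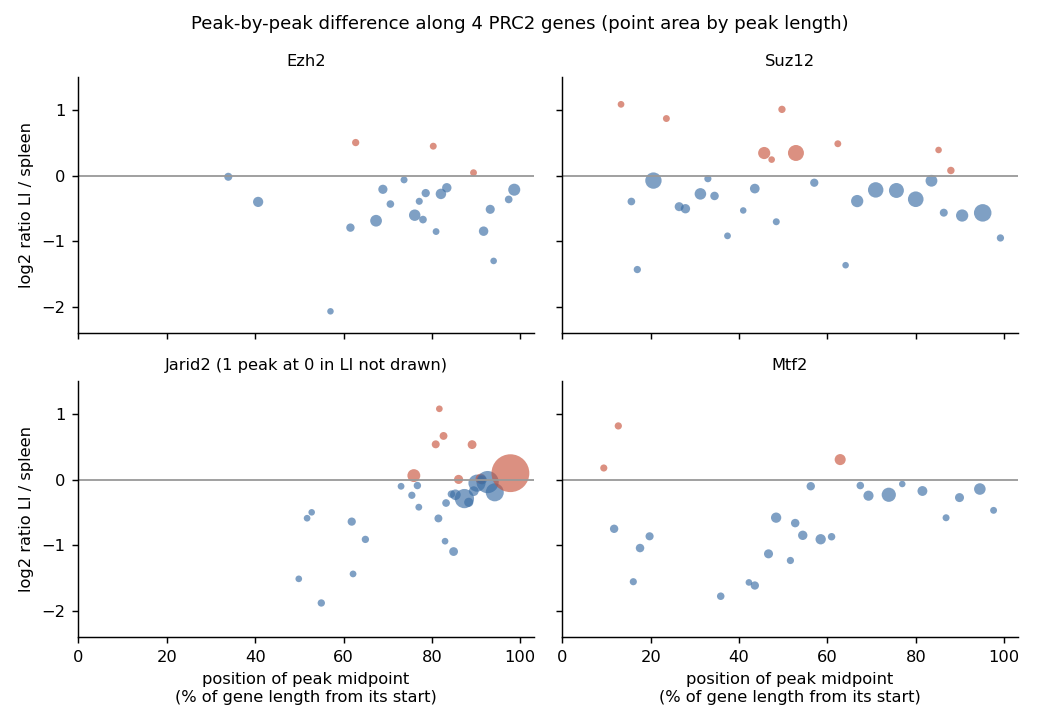
Log2 ratio of each peak (LI over spleen, vertical axis) against the position of its midpoint in percent of the gene length from the start (horizontal axis) for Ezh2, Suz12, Jarid2 and Mtf2, with the area of a point growing with peak length and blue for peaks higher in the spleen. In Jarid2 the 10850-bp peak near the end lies at 0.10 while short upstream peaks lie far below 0, and in Mtf2 the peaks from 40% to 60% of the gene lie lower than those after them.

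The unweighted sums of the 3 PRC1 genes gave no interval that left 0. Rnf2 and Ring1 encode the E3 ubiquitin ligases of PRC1. Rnf2 (ENSMUSG00000026484.13, chr1:151458004-151500955, minus strand) had 111 RPKM in the spleen and 99.4 RPKM in the LI over 11 peaks, with a log2 ratio of -0.16 (interval -0.45 to 0.13). A 4918-bp peak held 56.5% of the Rnf2 signal and had 15.6 RPKM in the spleen and 14.2 RPKM in the LI. With GC correction the Rnf2 ratio was -0.02 (interval -0.31 to 0.26).

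Ring1 (ENSMUSG00000024325.8, chr17:34020792-34024680, minus strand), a short gene, had 3 peaks. Its summed value was 45.6 RPKM in the spleen and 34.4 RPKM in the LI, for a log2 ratio of -0.40 (interval -0.85 to 0.05). Its peaks were 56.1% to 58.8% GC, a range in which peaks of the genome were on median higher in the LI, and with GC correction the ratio was -0.74 (interval -1.19 to -0.30). Weighted by length it was -0.50 (interval -0.87 to -0.13). The 1707-bp peak at its 3′ end had 14.5 RPKM in the spleen and 9.96 RPKM in the LI. The 371-bp peak nearest its start went the other way, with 13.4 RPKM in the spleen and 15.1 RPKM in the LI. The ratio of Rnf2 exceeded that of Ring1 by 0.24 (interval -0.29 to 0.78) and by 0.72 (interval 0.19 to 1.25) with GC correction. Only about 118 reads in the spleen and 110 in the LI lie behind the Ring1 values.

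Bmi1 (ENSMUSG00000026739.13, chr2:18677018-18686629, plus strand), the ring finger partner that stimulates the ligase, held 1 peak of 418 bp over a coding exon. It had 9.40 RPKM in the spleen and 13.7 RPKM in the LI, from about 12 and 22 reads, and its log2 ratio of 0.52 had an interval of -0.46 to 1.49. A difference between the organs was not detectable in Bmi1 at this depth.

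**Figure D3:**
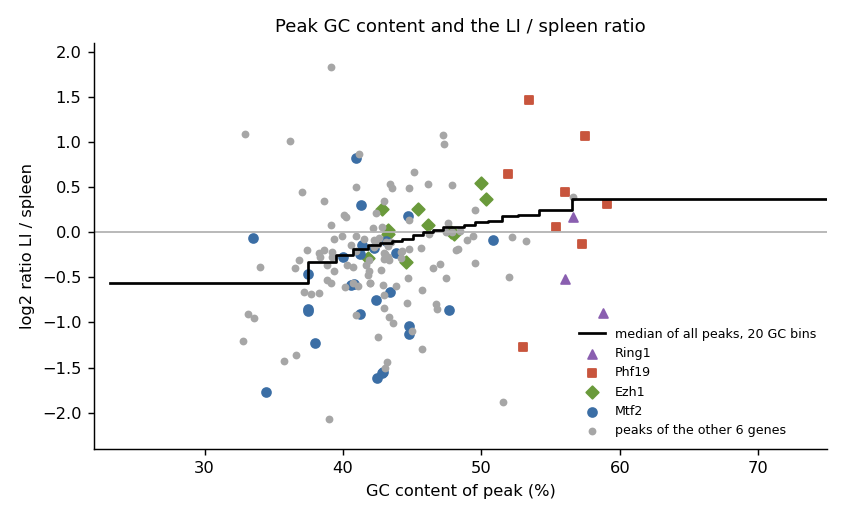
Log2 ratio of each member peak (LI over spleen) against its GC content in percent, with the median of all peaks in 20 bins of GC content as a black step line, which rises from -0.56 to 0.37. Of the 27 Mtf2 peaks 21 lie below the line, the Phf19 peaks scatter around it, and all 3 Ring1 peaks lie below it. The Jarid2 peak listed at 0 in the LI is not drawn.

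Counted peak by peak, 123 of the 168 member peaks (73.2%) were higher in the spleen, against 51.3% of the 115700 peaks in gene bodies. Peaks of 1 gene share a locus and are not replicates. Among peaks of 1 kb or more, 26 of 37 (70.3%) were higher in the spleen, against 48.7% of all such peaks. With GC correction 108 of the 168 (64.3%) were, against 51.2% of all peaks in gene bodies. Of the member peaks, 20 (11.9%) were more than 2-fold higher in the spleen, against 9.57% of all peaks in gene bodies, and 6 (3.57%) were more than 2-fold higher in the LI, against 8.83%.

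Levels between genes were compared per base of peak, since the sums grow with the number of peaks. In the spleen Jarid2 stood highest at a mean level of 18.4 RPKM, above Ezh1 at 15.7 RPKM with intervals that did not overlap. Below them came Ring1 (15.0 RPKM), Eed (12.9 RPKM), Rnf2 (12.5 RPKM), Suz12 (11.6 RPKM), Ezh2 (11.3 RPKM), Mtf2 (10.4 RPKM), Bmi1 (9.40 RPKM) and Phf19 (8.52 RPKM), each overlapping its neighbour. In the LI the order again began with Jarid2 (17.7 RPKM) and Ezh1 (16.6 RPKM) and ended with Ezh2 (8.40 RPKM) and Mtf2 (7.62 RPKM), and every neighbour overlapped. Of the catalytic subunits, Ezh1 stood above Ezh2 in both organs with intervals that did not overlap.

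**Figure D4:**
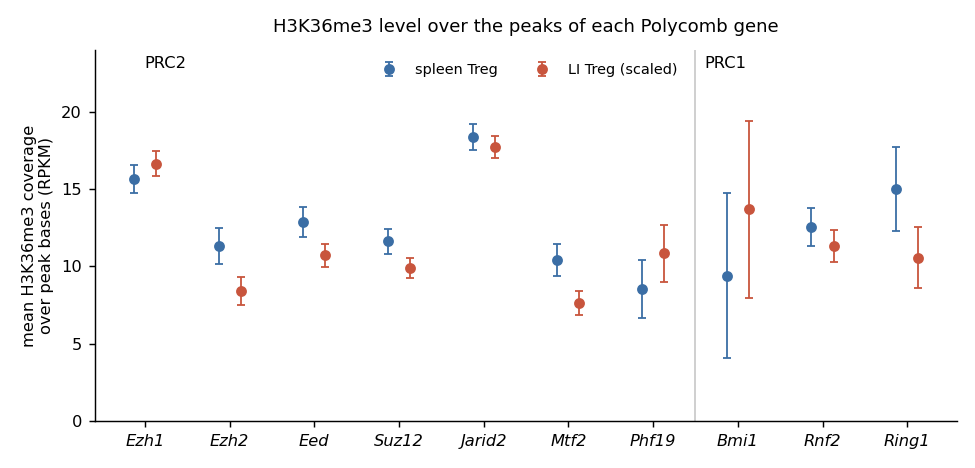
Mean H3K36me3 coverage per base of peak in RPKM for each gene in splenic (blue) and LI (red) Treg cells, the LI values scaled, with 95% intervals of counting error. Jarid2 and Ezh1 stand highest in both organs, Ezh2 and Mtf2 lowest in the LI, and Bmi1 rests on 1 peak.

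Few start sites were touched by a peak. Of 12 RefSeq promoter windows of the 10 genes (from 250 bases before to 50 after a start, GRCm38.p6), 1 was touched by a peak, that of Ring1. Of all 32851 such windows 4.50% were.

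Beyond these 10, 38 further genes of the Polycomb system were listed, of which 34 held a peak and had enough signal. Rybp, Auts2, Asxl3 and Epop held none. Of the 34, 15 were higher in the LI and 19 in the spleen, against 5523 and 5363 of all 10886 genes tested. Of the 34 intervals, 7 lay above 0 (18.0% of all genes) and 6 below 0 (15.2% of all genes). None of the 34 genes passed 2-fold. Their median log2 ratio was -0.06, and 0.06 when peaks were weighted by length. With GC correction it was -0.04, against -0.03 over all genes. Then 12 were higher in the LI and 22 in the spleen, against 4868 and 6018 of all genes. Of the corrected intervals 3 lay above 0 (11.1% of all genes) and 5 below 0 (15.8% of all genes).

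Highest among the further genes stood Pcgf2, Bcorl1 and Aebp2. Pcgf2, also known as Mel18 and the closest relative of Bmi1, had 34.7 RPKM in the spleen and 64.4 RPKM in the LI (log2 ratio 0.88, interval 0.36 to 1.40). Bcorl1, a corepressor of variant PRC1, had 196 RPKM in the spleen and 332 RPKM in the LI (log2 ratio 0.75, interval 0.54 to 0.97). Aebp2, which joins PRC2 beside Jarid2, had 178 RPKM in the spleen and 271 RPKM in the LI (log2 ratio 0.61, interval 0.43 to 0.78). All 3 kept an interval above 0 with GC correction, at log2 ratios of 0.59, 0.62 and 0.68. The ratio of Jarid2 lay below that of Aebp2 by -0.89 (interval -1.13 to -0.65), and that of Bmi1 differed from that of Pcgf2 by -0.36 (interval -1.47 to 0.74). Weighted by peak length, Jarid2 and Aebp2 lay closer together, at -0.05 and 0.46.

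At the low end stood Pcgf5, Scmh1 and Rbbp7. Pcgf5, a ring finger partner in variant PRC1, had 163 RPKM in the spleen and 111 RPKM in the LI (log2 ratio -0.55, interval -0.90 to -0.19). Scmh1 had 1 peak of 13.1 RPKM in the spleen and 9.41 RPKM in the LI, with an interval of -1.83 to 0.92. Rbbp7, a histone chaperone of PRC2, had 115 RPKM in the spleen and 91.4 RPKM in the LI (log2 ratio -0.33, interval -0.71 to 0.04).

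**Figure D5:**
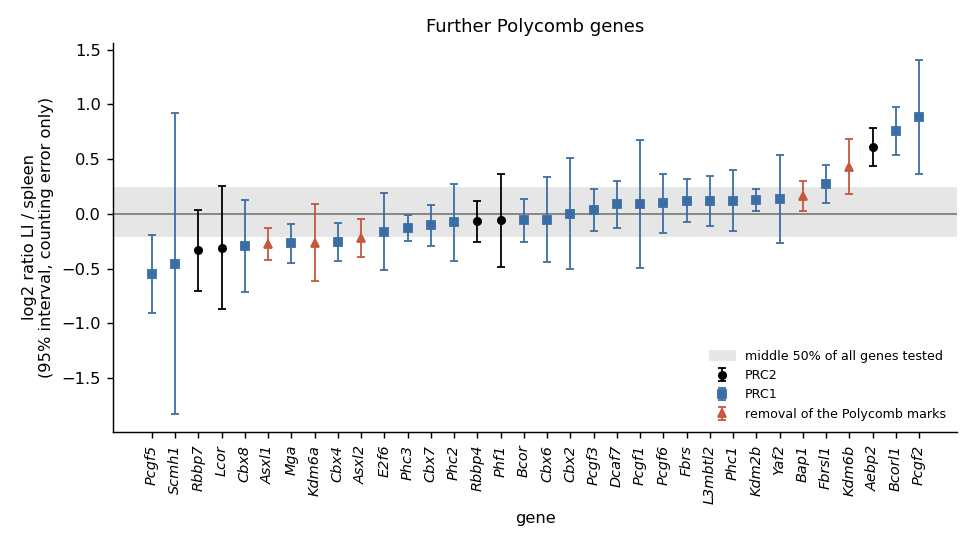
Log2 ratio (LI over spleen) with 95% intervals of counting error for the 34 further Polycomb genes in order, by role: PRC2 (circles), PRC1 (squares) and removal of Polycomb marks (triangles). The grey band holds the middle 50% of all genes tested. The genes spread on both sides of 0, with Pcgf2, Bcorl1 and Aebp2 highest and Pcgf5 lowest.

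Because Ezh2 is known to be made by dividing cells, 12 cell cycle genes were set beside it. Of the 11 with enough signal 10 were higher in the spleen, where 5363 of all 10886 genes were. Of their intervals 4 lay below 0 (15.2% of all genes) and 1 (Mcm7) above 0 (18.0% of all genes). Their median log2 ratio was -0.28, and -0.08 when peaks were weighted by length. With GC correction the median was -0.03, as over all genes. Then 8 were higher in the spleen, 3 with an interval below 0 (15.8% of all genes), and 0 had one above 0 (11.1%). Top2a, the topoisomerase of dividing cells, had 201 RPKM in the spleen and 115 RPKM in the LI (log2 ratio -0.80, interval -1.08 to -0.52). Mki67, the proliferation marker, had 136 RPKM in the spleen and 134 RPKM in the LI (log2 ratio -0.02, interval -0.33 to 0.30). The part of cell division in the values of Ezh2 was not tested.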

How the data were processed

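H3K36me3 was measured by ChIP-seq (single-end reads of 75 nt) in splenic and LI Treg cells. Per the study's methods and the submitters' processing notes, the authors checked reads with FastQC, aligned them to mm10 with Bowtie2, called peaks per organ against input with MACS2, merged them with bedtools and deposited the mean RPKM coverage of each merged peak in each library. The table holds merged peaks alone, so signal between peaks is unseen, and it does not record the organ in which a peak was called.

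Here the LI column was scaled to the total of the spleen column, peaks were assigned by midpoint to GENCODE M21 gene bodies, and values were summed per gene. Ratios are log2 of LI over spleen with 0.5 RPKM added, for genes of at least 20 RPKM over both libraries. Approximate 95% intervals took each read to cover 200 bp, from the depth the values imply, 29600000 and 38100000 mapped reads. GC content came from GRCm38.p6, the genome of mm10, with 20 bins. Steps were tested on simulated data. All 10 members are named, with the highest and lowest 3 of the further Polycomb genes and, per member, the peak with most signal and the peak of 1 kb or more with the largest ratio. Other peaks were named after their values were seen. The members and lists were chosen with earlier results of these data known. Alternatives were the scaling, pseudocount, minimum, length weighting, peak choice, assignment, GC correction and read length. Python 3.11.15, pandas 2.3.3, pysam 0.24.0 and samtools 1.23.1 were used.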

Additional observations from a re-analysis of the deposited data

How the results depend on the processing

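The median log2 ratio of the 10 genes stayed negative under every alternative, from -0.24 to -0.03. With GC correction it was -0.03, and the median of all genes was -0.03 as well. Of 118 alternative values of the summary results, 102 were classed as unchanged, under a tolerance too wide to measure closeness. The 102 include the median of the 10 genes with GC correction, -0.03 against -0.21. They also include 3 changes of sign in the median of the further genes. The count of members with an interval below 0 was 3 with the deposited scaling and 1 (Suz12) from the strongest peak of each gene. From peaks of 1 kb or more it was 3 of 6 genes: Eed, Suz12 and, newly, Ring1. Jarid2 then had -0.07 (interval -0.19 to 0.05), and Ezh2 and Mtf2 were not among the 6. The count above 0 was 1 (Phf19) with reads taken to cover 75 bp. The strongest peaks gave 1 member past 2-fold (Phf19, -1.27) and a difference of Ezh2 and Ezh1 of -0.17. The share of member peaks higher in the LI, 26.8%, was 35.7% with GC correction and 34.5% with a correction learned from peaks of 1 kb or more. Genes past 2-fold numbered 373 higher in the LI and 222 in the spleen. They were 138 in the spleen with a pseudocount of 5, and 234 in the LI with GC correction and length weighting together. They were 120 and 40 with peaks of 1 kb or more, 624 and 457 with no minimum, and 70 and 39 with a minimum of 200. Of single genes, Suz12 turned to 0.047 with GC correction and to 0.049 with length weighting added. Genes whose intervals included 0 also changed sign: Ezh1 (-0.02), Phf19 (-1.27) and Ring1 (0.17) from the strongest peak, Phf19 (-0.002) with GC correction and Rnf2 (0.01) with GC correction and length weighting. The strongest peak of Ring1 had 371 bp, while its 1707-bp peak with the most signal had -0.52. The median of the further genes changed sign with length weighting (0.06), strongest peaks (0.02) and peaks of 1 kb or more (0.08). The corrections joined with length weighting or learned from long peaks were chosen after seeing the data. Depth limited Bmi1 most, with about 12 and 22 reads. No paired analysis was possible because each organ has 1 library.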
